A study of Homo sapiens with 13 samples.

Results

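Adolescent idiopathic scoliosis variants at the locus of WNT9A and WNT3A, 2 neighbouring genes on chromosome 1, were examined here in a lentiviral massively parallel reporter assay. The members were all allele pairs of the library named for chromosome 1 with a position from 228100000 to 228400000 on hg19. There were 34 such pairs of 4468 in the library, built from 48 tested sequences of 6047 and lying at 14 positions of 1579. At 10 positions the reference base was paired with each of the 3 other bases, so that the 3 pairs of a position shared 1 reference sequence. The other 4 pairs each removed a short run of bases. The positions spanned 258486 bp, and the closest pair of them was 467 bp apart.

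In this assay a short DNA sequence, called an element below, is placed in a lentiviral reporter that carries random barcodes, and the vector integrates into the genome of the infected cells. The RNA count of the barcodes of an element over their DNA count measures how strongly it drives transcription. The cells were TC28a2, an immortalized human chondrocyte line, and SW1353, a human chondrosarcoma line, both labelled as chondrocytes and both given the library and kept for 48 h before DNA and RNA were extracted from the same cells. Each line had 3 replicates of DNA and 3 of RNA. The labels name no untreated cells, and scrambled sequences served as the background. Each group is 1 line grown in culture, and the labels do not say whether its replicates were separate infections, so that p-values measure the spread between these samples, which may be technical.

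WNT9A and WNT3A encode secreted ligands of the Wnt family, which bind Frizzled and LRP receptors and in many cells stabilize the transcriptional partner beta-catenin. WNT9A, formerly called WNT14, is known for its expression in the interzone where synovial joints form and for its part in cartilage and joint development. WNT3A is known for its expression in the tail bud of the embryo, where it keeps the axial progenitors that give rise to somites and so to vertebrae. In the RefSeq gene table for GRCh38.p14, WNT9A is followed along the chromosome by WNT3A, and further along by ARF1. The element positions are on hg19, for which no annotation was used here, so positions were not assigned to exons or introns.

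The bases removed by the deletion alleles are shown first, since they are the alleles of the locus that change more than 1 base. Their letters come from the element names, in capitals throughout because every letter is deleted.

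228141651 (hg19): AGAC
228194153 (hg19): GGCCGCAGGCAGACGG
228194620 (hg19): CGCCGCCCCG
228315703 (hg19): CTAT

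The runs removed at 228194153 and 228194620 are GC-rich, 81.2% G or C in the first and G or C throughout in the second. The 10 bases deleted at 228194620 occurred in the RefSeq promoter window of WNT3A. They stood there as 2 adjacent copies, from 78 to 59 bases before the annotated start, at chr1:228006920-228006939 on the plus strand of GRCh38.p14. The stretch around them is printed to show the repeat, with both copies in capitals, and below it the same stretch with 1 copy taken out.

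stretch with both copies: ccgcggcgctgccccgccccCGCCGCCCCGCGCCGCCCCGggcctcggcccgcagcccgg
stretch with 1 copy removed: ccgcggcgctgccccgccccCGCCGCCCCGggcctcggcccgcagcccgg

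Removing either copy gives the same letters, so the copies cannot be told apart. The placement is by sequence match and not by conversion of coordinates between builds. The unit of 10 bases, on either strand, was found in the 250 bases upstream of the start in 321 of 35116 RefSeq promoters, or 0.914%, and 2 adjacent copies in 2 of them (0.0057%). The upstream 250 bases of WNT3A had 86.0% G or C. They held the letters CCGCCC of the GC box, the core bound by Sp family factors, 5 times when both strands were counted, and 4 times after removal of 1 copy. Of all promoters, 42.6% held CCGCCC in the same window. The deleted unit itself contains CCGCCC. The 16 bases deleted at 228194153 had no match in the WNT3A window. Sequences of the full elements were not used here.

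Activity is given below as log2 of RNA over DNA, each scaled to its library, minus the median of 191 scrambled controls of variant sites, so that 0 is the level of scrambled sequence. Replicate values are given first, then the value fitted by edgeR, which need not equal their mean. Elements needed at least 10 DNA barcodes in every replicate. Library totals were 5523658 to 5738307 in DNA and 22048832 to 22212124 in RNA of TC28a2, and 15582658 to 15626361 and 37571404 to 37631975 in SW1353. The tested elements of the locus had 70 to 464 DNA barcodes per replicate in TC28a2, with a median of 340, and 84 to 459 in SW1353, with a median of 376. The files list at most 500 barcode positions per element and library. Of 47 tested elements of the locus, 30 reached position 500 in at least 1 library of TC28a2 and 25 in SW1353, so barcodes beyond it were not counted. Scrambled controls that reached position 500 had a median activity of 0.20 in TC28a2 (n = 32) and 0.43 in SW1353 (n = 24), against -0.05 and -0.04 for those that did not. The part of this limit in the activities was measured only by the alternatives given below.

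The reference element of the deletion at 228194620 was the 1 element of 48 that could not be tested. It had 3, 2 and 3 DNA barcodes in the replicates of TC28a2 and 1, 3 and 2 in SW1353, while its deletion element had 100, 70 and 76 and then 99, 84 and 88. In the whole library 23 of 1579 reference elements (1.46%) fell under the minimum in TC28a2 and 24 (1.52%) in SW1353. No allelic comparison was therefore made at this position, which left 33 pairs.

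Most elements of the locus were more active than scrambled sequence. In TC28a2, 33 of 47 passed the test above it (edgeR quasi-likelihood test, adjusted p under 0.05), beside 32.5% of all elements tested in that line. In SW1353, 37 of 47 passed, beside 48.9%. Elements of scoliosis variants are the closer comparison, and among all reference elements of the library 27.5% were called above in TC28a2 and 37.1% in SW1353. At the locus 10 of 13 reference elements were called above in TC28a2 and 9 of 13 in SW1353. The alternative elements gave 23 of 34 and 28 of 34, beside 27.2% and 38.1% of all alternative elements. The alleles of a position share nearly all of their sequence, so these counts describe 14 sites and not 47 independent sequences. The median activity of the 13 reference elements was 0.44 in TC28a2 and 0.85 in SW1353, beside 0.26 and 0.36 over all reference elements, and 10 of the 13 lay above those medians in each line. No element of the locus was called below scrambled sequence (beside 2.75% of all elements in TC28a2 and 1.82% in SW1353), and every fitted value was above 0. The scrambled controls themselves were called above their median in 9.95% of cases in TC28a2 and 12.6% in SW1353.

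These counts moved with the treatment of the 500-position limit. Among all reference elements, 57.9% of those at the limit were called above in TC28a2 and 20.3% of those under it, and in SW1353 83.4% and 29.8%. At the locus 9 of 17 elements under the limit were called above in TC28a2 and 13 of 22 in SW1353. When each element was set against scrambled controls of its own kind, at or under the limit, 23 of 47 were called above in TC28a2 and 35 of 47 in SW1353. In that setting 31.5% and 48.7% of all elements were called, above or below.

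The most active position of the locus was 228133322, where all 4 alleles stood well above scrambled sequence in both lines. The C reference had activities of 1.14, 0.91 and 0.99 in the replicates of TC28a2 and 2.34, 2.04 and 2.27 in SW1353. The replicates of the lines did not overlap. The TC28a2 fit was 1.01, or 2.01-fold over scrambled sequence (SE 0.0929, n = 3, edgeR adjusted p = 2.72e-05), and it ranked 33 of 1556 reference elements. In SW1353 the fit was 2.16 (SE 0.0910, n = 3, edgeR adjusted p = 2.87e-08), or 4.48-fold, and it ranked 4 of 1555. The G allele gave 1.25, 1.11 and 1.15 in TC28a2 and 2.25, 2.46 and 2.41 in SW1353. For the A allele the values were 1.11, 1.38 and 1.10, then 2.11, 2.05 and 1.95. The T allele had 0.97, 1.12 and 0.98 in TC28a2 and 1.80, 1.76 and 1.75 in SW1353, where it was the lowest of the 4 alleles in every replicate. Activity at this position rested on 339 to 437 DNA barcodes per element and replicate in TC28a2 and 385 to 419 in SW1353. All 4 elements reached position 500. Against scrambled controls that also reached it, the C reference remained above, at 0.81 (edgeR adjusted p = 1.50e-04) and 1.73 (edgeR adjusted p = 1.91e-07).

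By the mean of the reference element over both lines, the next positions were 228219882, 228194153, 228141651 and 228270964. The order differed within each line, with 228194153 and 228141651 above 228219882 in TC28a2 and below 228270964 in SW1353. At 228219882 the C reference had 0.89, 0.65 and 0.58 in TC28a2 and 1.09, 1.25 and 1.26 in SW1353, fitted at 0.70 (SE 0.0989) and 1.15 (SE 0.0930). The fits of its 3 alternatives ranged over 0.57 to 0.79 (TC28a2) and 1.00 to 1.13 (SW1353), and every allele of this position was called above scrambled sequence in both lines. The reference of the deletion at 228194153 had 1.15, 0.93 and 0.36 in TC28a2 and 0.93, 1.12 and 0.65 in SW1353. Its fits were 0.81 (SE 0.164) and 0.85 (SE 0.138), and replicate 3 was the lowest in each line. For the reference of the deletion at 228141651 the values were 1.00, 0.61 and 0.84 in TC28a2 and 0.54, 1.05 and 0.96 in SW1353. These overlapped between the lines, with fits of 0.81 (SE 0.131) and 0.80 (SE 0.158). None of the elements at 228194153 and 228141651 reached position 500. They were called above scrambled sequence in both lines, with edgeR adjusted p from 5.23e-04 to 0.0165.

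At 228270964 the G reference was more active in SW1353 than in TC28a2, by 0.69 (SE 0.179, edgeR adjusted p = 0.0173). The call was lost with controls matched on position 500 (0.53, edgeR adjusted p = 0.0987). The element had 0.02, 0.67 and 0.65 in TC28a2, fitted at 0.44 (SE 0.139, edgeR adjusted p = 0.0344), and 1.30, 1.22 and 0.96 in SW1353, fitted at 1.11 (SE 0.0986, edgeR adjusted p = 6.39e-06). The call of activity in TC28a2 was lost with limma (adjusted p = 0.0907), with controls matched on the 500 limit (0.24, edgeR adjusted p = 0.200) and without replicate 2 or 3, where the fit was 0.35 and 0.33.

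By the mean over both lines, the lowest reference elements lay at 228272687, 228157363 and 228391808. In TC28a2 alone that at 228272687 ranked 389 of 1556, above the reference at 228326492 (0.25, rank 798). The G reference at 228272687 had 0.90, 0.22 and 0.29 in TC28a2 and 0.53, 0.21 and 0.15 in SW1353. Replicate 1 of TC28a2 stood apart, and 1 barcode gave 41.5% of the RNA count of the element there, against 8.41% and 6.59% in the others. It was called above in TC28a2 (0.46, SE 0.142, edgeR adjusted p = 0.0301), and the call was lost without replicate 1 (0.24, edgeR adjusted p = 0.272) and without the replicate block (0.50, edgeR adjusted p = 0.0622). It was also lost with limma (adjusted p = 0.0759), with matched controls (0.27, edgeR adjusted p = 0.170) and with the median reference element as zero (0.20, edgeR adjusted p = 0.363). In SW1353 it was not called (0.25, SE 0.129, edgeR adjusted p = 0.138). The G reference at 228157363 had 0.26, -0.19 and 0.25 in TC28a2 and 0.65, 0.30 and 0.09 in SW1353, with edgeR adjusted p of 0.597 and 0.112. That at 228391808 had 0.21, 0.13 and 0.30, then 0.47, -0.35 and 0.58, with edgeR adjusted p of 0.243 and 0.458. The highest upper bound of the 95% intervals of these 4 fits was 0.62, and the lowest lower bound was -0.26.

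The remaining substitution positions were 228144058, 228166059, 228239301 and 228326492. At 228144058 all 4 alleles were called above in both lines, and their fits lay close together, at 0.55 to 0.68 (TC28a2) and 0.57 to 0.72 (SW1353). At 228166059 all 4 were called as well, at a lower level in TC28a2 (0.40 to 0.52) than in SW1353 (0.93 to 1.14). The same held at 228326492, with 0.25 to 0.59 in TC28a2 and 0.75 to 1.02 in SW1353. All 8 of these elements reached position 500. Against controls that also reached it, 1 of 4 alleles at 228166059 and 2 of 4 at 228326492 remained called in TC28a2, and 4 of 4 at each in SW1353. The G reference at 228166059 was then at 0.21 in TC28a2 (edgeR adjusted p = 0.0954) and the T reference at 228326492 at 0.05 (edgeR adjusted p = 0.660). Position 228239301 was near the threshold, with fits of 0.31 to 0.40 and 3 of 4 alleles called in TC28a2, and 0.31 to 0.60 and 4 of 4 in SW1353. With matched controls 0 of 4 were called there in TC28a2 and 1 of 4, the G allele, in SW1353. That allele had the lowest fit of the 4 in SW1353 (0.31) and alone did not reach position 500. It was therefore set against the controls under the limit, whose median activity was lower (-0.04 against 0.43).

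Activity varied more between positions than between the alleles of a position. The SD between the means of the 10 substitution positions was 0.26 in TC28a2 and 0.52 in SW1353. Position 228133322 had the highest mean, 1.10 and 2.10, and the others lay from 0.18 to 0.71 and from 0.35 to 1.14. Reaching position 500 also differed by position, and its part in these SDs was not tested. The median SD among the 4 alleles of a position, taken over means of 3 replicates, was 0.12 and 0.14. The median SD over single replicates of 1 element was 0.16 and 0.17, which is not on the same scale. All 4 alleles were called above scrambled sequence at 5 of 10 positions in TC28a2 and 7 of 10 in SW1353, and no position had none called. Against controls matched on position 500, all 4 were called at 3 positions in TC28a2 and 6 in SW1353. Positions 228157363, 228239301 and 228272687 then had 0 alleles called in TC28a2. These counts of positions were not made over the whole library, so they do not show whether the locus is unusual in them. Across the 13 reference elements, activity in one line correlated with that in the other at r = 0.657 and rho = 0.49. The lines share the library and its element sequences.

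In the test of the difference between lines, 15 of 47 elements were more active in SW1353, beside 12.3% of all elements. The shares were 4.9% of all reference and 4.94% of all alternative elements. The 15 elements lay at 5 positions, 228133322, 228166059, 228219882, 228270964 and 228326492. No element was more active in TC28a2 (beside 0.014%), neither by the adjusted p of edgeR nor at an unadjusted p under 0.05. The difference was above 0 in 43 of 47 elements, with a median of 0.23 beside 0.14 over all reference elements. At 228133322 it was 1.18 for the C reference (SE 0.128, edgeR adjusted p = 5.4e-05), 1.19 for G, 0.82 for A and 0.73 for T. At 228166059 the G reference differed by 0.71 (SE 0.137, edgeR adjusted p = 0.00219), and at 228326492 the T reference by 0.71 (SE 0.132, edgeR adjusted p = 0.00171). By contrast the reference elements at 228141651 and 228194153 differed by 0.01 and 0.07, with 95% intervals of -0.43 to 0.46 and -0.41 to 0.55. At 228144058 the T reference differed by 0.04, with an interval of -0.34 to 0.43.

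All 15 elements with a difference had reached position 500 in a library of either line. Of the 30 elements of the locus at this limit 15 were called, and of the 17 under it 0. Over all reference elements the shares called higher in SW1353 were 22.1% at the limit and 0.798% under it. Against controls matched on the limit, 10 of 47 elements were called, beside 8.57% of all elements. The 10 included all 4 alleles at 228133322, with differences of 1.01, 1.02, 0.65 and 0.56. The call of the C reference at 228219882 was lost (0.31, edgeR adjusted p = 0.24). At 228270964 only the A allele kept its call (0.61, edgeR adjusted p = 0.0484). Without elements at the limit 0 of 17 were called, beside 0.0% of all elements, and 1 had an unadjusted p under 0.05. Without replicate 2, 9 of 47 were called, beside 8.18% of all elements.

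In each pair the alternative allele was compared with the reference allele. No pair of the locus passed this test. In TC28a2, 0 of 33 pairs were called by edgeR after adjustment over all pairs of the library, of which 0.0227% were called, and 2 had an unadjusted p under 0.05. In SW1353 the counts were 0 of 33, again beside 0.0227%, and 2. Of all pairs 2.64% in TC28a2 and 3.27% in SW1353 had an unadjusted p under 0.05. With DESeq2 and limma 0 pairs of the locus were called as well. Pairs with an unadjusted p under 0.05 numbered 1 (TC28a2) and 2 (SW1353) with DESeq2, and 0 and 1 with limma.

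The allelic effects were small beside their errors. As log2 differences, alternative minus reference, they spanned -0.36 to 0.46 (TC28a2) and -0.44 to 0.68 (SW1353), with median SEs of 0.175 and 0.179. The 95% interval of the effect lay within 1 log2 unit of 0 for 32 of 33 pairs in TC28a2 and 31 of 33 in SW1353, and within 0.5 for 20 and 18. For the other pairs the interval reached past 0.5. Alternatives exceeded their reference in 16 of 33 pairs in TC28a2 and 14 of 33 in SW1353.

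The allele with the lowest p-value of the locus was at its most active position. C228133322T, with the reference base first and the hg19 position between the letters, had effects of -0.54, -0.27 and -0.51 in the replicates of SW1353. All 3 were below 0, and the fit was -0.44 (SE 0.123, edgeR unadjusted p = 0.0036, adjusted p = 0.991), or 0.735 of the reference. In TC28a2 the effects were -0.17, 0.21 and -0.01, on both sides of 0, and the fit was 0.01 (95% interval -0.26 to 0.28). The difference between the lines was -0.45 (95% interval -0.81 to -0.09, edgeR unadjusted p = 0.0164, adjusted p = 1.0). Of the other bases, A was also fitted below the reference in SW1353, by less, and G above it. C228133322A had -0.03, 0.46 and 0.11 in TC28a2 and -0.23, 0.01 and -0.31 in SW1353, with fits of 0.18 and -0.18. Its difference between lines was -0.36 (95% interval -0.74 to 0.02, edgeR unadjusted p = 0.0611). C228133322G was fitted at 0.15 and 0.16.

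At 228157363, a position of low activity, the C allele stood above the others. G228157363C had effects of 0.08, 0.48 and 0.33 in TC28a2 and 0.10, 0.32 and 1.10 in SW1353, and was the 1 pair of 33 with an effect above 0 in all 6 replicates. Such pairs were not counted over the whole library, so this does not set the pair apart. The fits of G228157363C were 0.30 (95% interval -0.08 to 0.67, edgeR unadjusted p = 0.115) and 0.50 (0.06 to 0.94, edgeR unadjusted p = 0.0292, adjusted p = 0.991). Without replicate 3 the effect in SW1353 was 0.21 (edgeR unadjusted p = 0.345), and without replicate 1 it was 0.71. In each line the C allele was the only 1 of the 4 called above scrambled sequence, at 0.40 (SE 0.106, edgeR adjusted p = 0.0174) in TC28a2 and 0.80 (SE 0.136, edgeR adjusted p = 7.50e-04) in SW1353. Its element reached position 500 in both lines, while the G reference did not. Against controls matched on that limit it was not called in TC28a2 (0.20, edgeR adjusted p = 0.172) and stood at 0.36 in SW1353 (edgeR adjusted p = 0.0492). The A allele, which also reached the limit, was fitted at 0.10 and 0.25.

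At 228326492 the T reference was the lowest of the 4 alleles in TC28a2. T228326492C had effects of 0.29, 0.33 and 0.41 there, with a fit of 0.34 (SE 0.111, edgeR unadjusted p = 0.0074, adjusted p = 1.0). In SW1353 the effects were -0.30, 0.30 and 0.24 and the fit was 0.08. In the RNA of the C allele 1 barcode gave 12.6%, 26.3% and 23.5% of the count in TC28a2. Without the highest barcode of each element in each library the effect in TC28a2 was 0.25 (edgeR unadjusted p = 0.034). T228326492A had 0.39, 0.19 and 0.20 in TC28a2, fitted at 0.26 (edgeR unadjusted p = 0.0467), and -0.32, 0.07 and -0.30 in SW1353, fitted at -0.18. Without replicate 1 the TC28a2 fit was 0.19 (edgeR unadjusted p = 0.230). Its difference between lines was -0.44 (edgeR unadjusted p = 0.0249, adjusted p = 1.0).

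At 228272687 the C allele went opposite ways in the lines. G228272687C had -0.77, -0.00 and -0.31 in TC28a2 and 0.49, 0.23 and 0.41 in SW1353. The fits were -0.36 (95% interval -0.76 to 0.05) and 0.38 (-0.03 to 0.78), and the difference of 0.73 (95% interval 0.16 to 1.31, edgeR unadjusted p = 0.0152) was the lowest p of the locus in this comparison, with an adjusted p of 1.0. The lowest of these values falls in replicate 1 of TC28a2, where 1 barcode held 41.5% of the RNA count of the reference. Without replicate 1 the effect in TC28a2 was -0.15 and the difference between lines 0.47 (edgeR unadjusted p = 0.144). Without the highest barcodes the effects were -0.13 and 0.22. In the difference between lines 0 of 33 pairs were called by edgeR, DESeq2 and limma, beside 0.0% of all pairs, and 3 of 33 had an unadjusted p under 0.05 in edgeR, beside 1.91%. DESeq2 had 3 such pairs and limma 1.

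The highest fitted effects of the locus belonged to G228391808A, and they had the widest errors among substitutions. Its effects were -0.03, 0.29 and 1.12 in TC28a2 and 1.57, 0.41 and 0.09 in SW1353, with fits of 0.46 (95% interval -0.11 to 1.03) and 0.68 (-0.24 to 1.60). In replicate 3 of TC28a2 1 barcode gave 43.1% of the RNA count of the A allele, and in replicate 1 of SW1353 1 barcode gave 65.0%. Those are the replicates with the high effects, and without them the fits were 0.13 and 0.25. Without the highest barcodes the effects were 0.11 and 0.09. Elements at this position had 133 to 230 DNA barcodes per replicate in TC28a2 and 160 to 209 in SW1353, the fewest of the substitution positions.

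The other pairs with low p-values in SW1353 were G228270964C and C228239301G. G228270964C had -0.37, -0.24 and -0.09 there (fit -0.23, edgeR unadjusted p = 0.118), and 0.37, -0.43 and -0.47 in TC28a2 (fit -0.18). C228239301G had -0.36, 0.04 and -0.52 in SW1353 (fit -0.28, edgeR unadjusted p = 0.124) and -0.17, -0.11 and 0.02 in TC28a2 (fit -0.09). Without the highest barcodes C228239301G was at -0.06 in SW1353. The 3 pairs at 228144058 and the 3 at 228219882 were fitted between -0.15 and 0.09 in both lines, and those at 228166059 between -0.17 and 0.10.

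The testable deletions left activity within the replicate error. Removal of AGAC at 228141651 gave effects of -0.31, 0.32 and -0.32 in TC28a2 and 0.43, -0.43 and 0.24 in SW1353, fitted at -0.11 (95% interval -0.50 to 0.28) and 0.08 (-0.41 to 0.56). Removal of the 16 bases at 228194153 gave -0.75, -0.11 and 0.05, then 0.01, -0.41 and 0.04, fitted at -0.27 (-0.75 to 0.21; -0.03 without replicate 1) and -0.12 (-0.51 to 0.27). Removal of CTAT at 228315703 gave 0.10, -0.12 and 0.57, then 0.68, -1.71 and 0.05. Its fits were 0.18 (-0.29 to 0.66) and -0.31 (-1.34 to 0.72). In replicate 2 of SW1353 the reference of that deletion had an activity of 2.49 against 0.11 and 0.66 in the others, and 1 barcode gave 49.3% of its RNA count. The deletion element at 228194620, named for the removal of CGCCGCCCCG, had activities of -0.55, 0.62 and 0.66 in TC28a2 and 1.47, 0.94 and 1.23 in SW1353. It was called above scrambled sequence in SW1353 (1.16, SE 0.179, edgeR adjusted p = 3.59e-04) and not in TC28a2 (0.24, SE 0.242, edgeR adjusted p = 0.456). The difference between lines was 0.95 (SE 0.321, edgeR adjusted p = 0.0777).

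Because the 3 pairs of a position share a reference element, each position was also tested once for any allele effect. By edgeR 0 of 10 positions were called in each line, beside 0.0% of all positions, and DESeq2 and limma also called 0. In TC28a2 1 position had an unadjusted p under 0.05 (beside 2.6%), and in SW1353 2 had (beside 3.38%). For DESeq2 the counts were 1 and 3, and for limma 0 and 1. The lowest p was that of 228133322 in SW1353 (F = 8.63, edgeR unadjusted p = 0.000765, adjusted p = 0.544). When the highest barcode of each element in each library was left out this position was called (edgeR adjusted p = 0.00439), as 1 of 3 such positions among all those tested. In TC28a2 the same position had an unadjusted p of 0.406 in edgeR. Position 228157363 had an edgeR unadjusted p of 0.0319 in SW1353, and 228272687 had 0.0582. In TC28a2 the lowest were 228326492 (edgeR unadjusted p = 0.0304), 228270964 (0.200) and 228391808 (0.203).

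Allelic effects of the lines showed little correlation. Most were small beside their errors, so this does not show whether true effects differ between the lines. The sign was shared in 16 of 33 pairs, and the effects correlated at r = 0.291 and rho = 0.128 across the 33 pairs, which share reference elements in groups of 3. No pair had an unadjusted p under 0.05 in both lines by edgeR.

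The library also held 6 open chromatin peaks in the same window, 2 of them named for cartilage and tested in both lines. The others were tested in SW1353, where the 3 muscle peaks were fitted at 0.36, 0.70 and 0.70 and the bone peak at 0.46, all called above scrambled sequence. The first 2 muscle peaks were not called against matched controls (edgeR adjusted p = 0.536 and 0.0543). The cartilage peak at chr1:228270568-228270768 (hg19) had activities of -0.46, -0.24 and -0.42 in TC28a2 and 0.98, 0.82 and 0.67 in SW1353, while the reference element at 228270964, past its end, was called above scrambled sequence in both lines. The cartilage peak at chr1:228353655-228353855 (hg19) had 1.25, 1.63 and 1.66 in TC28a2 and 2.64, 2.40 and 2.71 in SW1353. Its fitted activity, 2.84-fold over scrambled sequence in TC28a2 and 5.78-fold in SW1353, exceeded that of every variant element of the locus, a difference that was not tested. Of all cartilage peaks 58.0% were called more active in SW1353.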

How the data were processed

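The data are barcode counts of a lentiviral reporter library in TC28a2 and SW1353, 3 DNA and 3 RNA libraries a line. The authors deposited whole-number counts per barcode position, up to 500 per element, allele and replicate, per the file headers; other deposited columns are names. The genome build is hg19, per the submitters' processing notes; the counting program and barcode order are not given in the sources used here, nor is whether counts are of molecules or reads. Errors rest on the spread over replicates, moderated by edgeR with the spread of all elements or pairs fitted together.

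Counts were summed per element and library. Elements needed 10 DNA barcodes in each replicate. edgeR 4.0.16 (R 4.3.3) with TMM scaling tested RNA over DNA (blocked by replicate), the allele by molecule interaction, each position once over its 3 alleles, and differences between lines as interactions, all two-sided, fitted on the whole library with Benjamini-Hochberg adjustment and a threshold of 0.05. Activity is relative to the median of 191 scrambled controls. Replicate values add 1 count to RNA and DNA. Alternatives used DESeq2 1.42.0, limma 3.58.1 (pseudocount 1 count), no replicate block, barcode minimums of 1 and 30, no highest barcode, no elements at position 500, another zero, and each replicate left out. The highest barcode was taken out of each DNA and RNA library separately, so it could differ between them. Fits were also run on simulated counts per element. These were drawn without single barcodes or the 500-position limit, so the effects of both were not tested there. Control sequences are listed under both alleles with the same values and were counted once.

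DNA and RNA of a replicate were paired from the labels, which say that they were isolated together; deviations of same-numbered DNA and RNA had r from -0.0116 to 0.0203 in TC28a2 and -0.00118 to 0.0231 in SW1353. At the first positions, counts of replicates 1 and 2 corresponded in DNA and in TC28a2 RNA (r = 0.235 in TC28a2 DNA). They did not in SW1353 RNA (r = -0.0649), where a position need not hold the same barcode in each replicate. The replicate of a value rests on the column names in every library.

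The members, lists and tests were chosen with earlier results of these data known. Described pairs are the 6 lowest p-values of each line, the 5 highest and 3 lowest reference elements, the largest differences between lines (up to 4 elements and 2 pairs), the 3 lowest position tests and every deletion. T228326492A and C228133322A in their line differences, the other alleles of those positions and the peaks were added after their values were seen. The sample linking barcodes to sequences was not analysed here.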

Additional observations from a re-analysis of the deposited data

Results flagged for a closer look

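Differences between lines stood out by the test of the difference itself. They were 1.19 for the G allele, 1.18 for the C reference and 0.82 for the A allele at 228133322, and 0.78 for the A allele at 228270964 (SW1353 minus TC28a2, log2), all among the 15 elements called by edgeR. In replicate 2 of SW1353 1 barcode gave 39.3% of the RNA count of the A allele at 228270964. Without replicate 2 its difference was 0.46 and no longer called (edgeR adjusted p = 0.177).

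The cartilage peaks at chr1:228270568-228270768 and chr1:228353655-228353855 (hg19), which are no members, differed by 1.17 (SE 0.151) and 1.05 (SE 0.142). The first is fitted below scrambled sequence in TC28a2 (-0.38, edgeR adjusted p = 0.0300) and above it in SW1353 (0.77, edgeR adjusted p = 9.37e-05).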

How the results depend on the processing

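Of the alternative counts of calls, 79 stayed within 1.5 times the reported count and 7 moved. Most of the 79 were allelic or position tests with 0 calls in both settings. The moves, but for 1 in a position test, were in activity or its difference between lines. Without elements at position 500 the calls were 8 of 17 tested (TC28a2 activity, 33 of 47 otherwise), 13 of 22 (SW1353 activity, 37 of 47 otherwise) and 0 of 17 (difference between lines, 15 of 47 otherwise), in part because fewer elements were tested. Of all elements 23.0%, 36.5% and 0.0% were called in that setting, above or below. With the median reference element as zero, 14 were called in TC28a2 and 25 in SW1353, beside 19.8% and 34.9% of all elements. limma called 8 differences between lines, beside 6.28%. Without the highest barcode, 1 position was called in SW1353, against 0. Leaving out each replicate gave 23 to 29 calls in TC28a2, 36 to 37 in SW1353 and 9 to 13 between lines, and 0 in every allelic and position test. The shares of all elements called for activity and its difference were then 25.4% to 25.7%, 44.4% to 45.7% and 7.32% to 10.6%. Without the replicate block the counts were 32, 37 and 18, beside 36.3%, 51.8% and 12.9% of all elements. They were 0 for the allelic and position tests, so the block changed no count by over 1.5 times. Leaving it out ended 1 described call, at 228272687 in TC28a2. Controls matched on position 500 were chosen after seeing the data.

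Among single values 454 kept direction and call, 6 gained and 13 lost a call, and 11 reversed. With the median reference element as zero, the reference elements at 228157363 went to -0.16 in TC28a2 and -0.06 in SW1353, at 228391808 to -0.05 and -0.17, and at 228272687 to -0.11 in SW1353. Leaving out replicates, the deletion of AGAC ranged from -0.32 to 0.00 in TC28a2 and -0.10 to 0.33 in SW1353, that of the 16 bases from -0.44 to -0.03 and -0.20 to 0.03, and that of CTAT from -0.01 to 0.34 and -0.83 to 0.36. None of these was called. Barcodes beyond position 500 were not counted, which limits what activity can show for elements that reached it.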
